A study of Mus musculus with 24 samples.

Results

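The transcript followed here is ENSMUST00000108658.9, taken as the transcript of Trp53, the gene of the transcription factor p53, and measured in mouse forelimbs at embryonic stage E10.5. It is 1 of 21960 transcripts in the deposited count table, and it was chosen by its RNA and footprint levels in all 24 libraries of that table, in particular by what was left of it in embryos without Trp53 and by its difference between Rps6 genotypes in embryos with Trp53. All of its levels and differences are therefore given as a description, without a test. The 4 genotypes were Rps6lox/+;Trp53+/+ (Rps6 WT, Trp53 WT), Prx1Cre;Rps6lox/+;Trp53+/+ (Rps6 het, Trp53 WT), Rps6lox/+;Trp53-/- (Rps6 WT, Trp53 null) and Prx1Cre;Rps6lox/+;Trp53-/- (Rps6 het, Trp53 null). Every group thus carried a floxed Rps6 allele, and the Rps6 het groups added the Prx1Cre transgene, which drives Cre recombinase in limb bud mesenchyme, so that other cells of the limb keep both Rps6 alleles. The labels give the Trp53 loss as an inherited genotype and do not name the null allele or the exons it lacks. Each replicate pooled material of 2 embryos of one genotype, and each pool gave an RNA library (total RNA without ribosomal RNA) and a library of ribosome-protected fragments (RPF, here called footprints), for 3 pools per genotype and 12 pools in all.

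The protein p53 binds DNA as a tetramer and activates genes that halt the cell cycle or start apoptosis. Its amount is set largely by degradation, because the ubiquitin ligase Mdm2, itself a p53 target, marks it for the proteasome. When ribosome assembly is disturbed, free ribosomal proteins of the large subunit bind Mdm2 and p53 accumulates, which is why mice short of a ribosomal protein such as Rps6 are often studied with and without Trp53. RNA counts reflect how much Trp53 message is present and footprint counts how many ribosome-protected fragments come from it. Neither measures the p53 protein.

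In the RefSeq annotation of GRCm38.p6, Trp53 spans chr11:69580348-69591873. Wrap53, which lies beside it at chr11:69561754-69580250, ends 97 bases before Trp53 begins. A pseudogene, Trp53-ps, is annotated at chr17:54419597-54421236, and the counts do not show whether it shares reads with the Trp53 transcript. The table gives one number per transcript and library, so the part of the message on which reads lie is not known, and reads on exons that a null allele keeps would be counted like reads of an intact message. The table pairs no ID with a gene name, and 0 of its IDs matched the reference tables. The name Trp53 came with the choice of the row and was not checked against a reference. Without such a match, Rps6, p53 target genes and markers of limb cell types could not be looked up.

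Libraries held 14291854 to 29104669 counts for RNA and 7026056 to 16835045 for footprints. Replicates of one group differed by more than counting noise in all 24 pairs (chi-square per degree of freedom 1.78 to 17.1), so each counted as a replicate. The Trp53 transcript itself had 287 to 3691 RNA counts and 1034 to 8201 footprint counts per library. A floor of 3 counts corresponded to at most 0.439 CPM in any library, CPM being the count scaled to its TMM-adjusted library total, and this is far under its lowest level of 15.8 CPM. Such a floor covers counting error only. In bulk tissue, fewer cells that carry a message and less message per cell cannot be told apart.

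RNA of the Trp53 transcript stood at 112, 99.6 and 101 CPM in the 3 pools of Rps6 WT, Trp53 WT (mean 104 ± 6.98 SD, n = 3), which are the control limbs. In Rps6 het, Trp53 WT it stood at 168, 123 and 160.1 CPM (150.3 ± 24.1). Both genotypes without Trp53 lay far below. Pools of Rps6 WT, Trp53 null had 25.5, 20.4 and 19.8 CPM (21.9 ± 3.13), and pools of Rps6 het, Trp53 null had 21.1, 20.6 and 15.8 CPM (19.2 ± 2.93). The order by mean was Rps6 het, Trp53 WT, then the control, then Rps6 WT, Trp53 null, then Rps6 het, Trp53 null. Pools of the last 2 genotypes overlapped, while the other neighbours in this order did not.

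Footprints gave the same order with less spread. They amounted to 499.7, 498 and 475 CPM in the control (491 ± 13.7 SD, n = 3). In Rps6 het, Trp53 WT they amounted to 585, 577 and 576 CPM (579.5 ± 4.73), above every control pool. In Rps6 WT, Trp53 null they were 109, 111 and 114 CPM (111 ± 2.4). In Rps6 het, Trp53 null they were 109.7, 104 and 105 CPM (106 ± 3.05), and again the genotypes without Trp53 overlapped with each other and with no other. In both library kinds all 6 libraries labelled Trp53 null lay below all 6 labelled Trp53 WT. The transcript was chosen on these levels, and the share of all transcripts separated in this way was not counted.

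**Figure D1:**
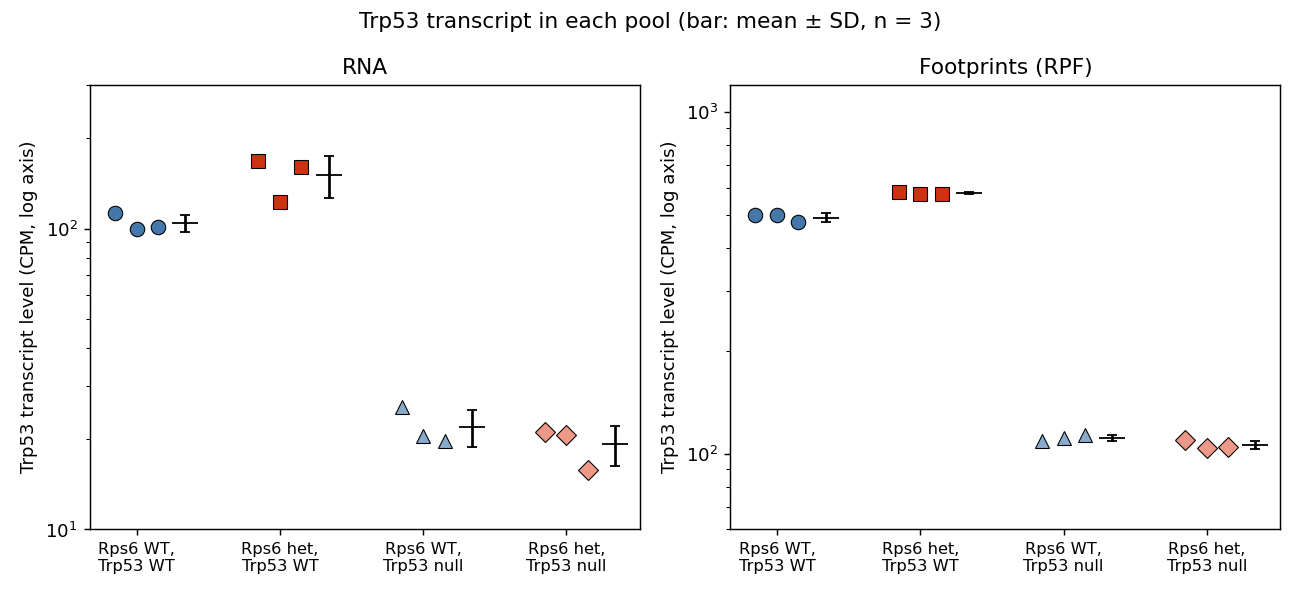
Level of the Trp53 transcript in each pool, in CPM on a log axis, for RNA (left) and footprints (right) in the 4 genotypes. Points are pools, and the bar beside them is the mean ± SD of 3 pools. Trp53 null pools lie between 15.8 and 25.5 CPM in RNA and between 104 and 114 CPM in footprints, well above 0 and well below the Trp53 WT pools.

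The first comparison asks how much Trp53 signal is left in limbs labelled Trp53 null. With Rps6 intact, RNA in Trp53 null was 21.2% of the Trp53 WT level by the fit across all transcripts, which is 4.72-fold lower (log2 fold change −2.24 ± 0.13 SE). Single pools gave 17.6% to 25.6%, taking each null pool over each WT pool. All 3 null pools were lower than all 3 WT pools, which held for 10.8% of the 14411 transcripts tested. Footprints in Trp53 null were 22.7% of the WT level, or 4.41-fold lower (log2 fold change −2.14 ± 0.04 SE), with single pools at 21.8% to 23.9%. Here too the pools did not overlap, as in 4.66% of 12147 transcripts. Trp53 ranked 2 from the lowest change in RNA and 2 in footprints, whereas the middle 95% of transcripts had log2 changes of −0.36 to 0.59 in RNA and −0.33 to 0.32 in footprints.

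In Rps6 het limbs less of the signal was left. RNA in Trp53 null was 12.7% of the Trp53 WT level (7.89-fold lower, log2 fold change −2.98 ± 0.13 SE), with single pools at 9.42% to 17.2%. Footprints were 18.3% of the WT level (5.46-fold lower, log2 fold change −2.45 ± 0.04 SE), with single pools at 17.8% to 19.0%. Pools did not overlap in either kind, as in 15.4% of transcripts for RNA and 15.9% for footprints. Trp53 ranked 12 from the lowest in RNA and 14 in footprints. The Trp53 WT pools of Rps6 het are the group with the highest Trp53 level, and the share left is taken relative to them. In CPM the null pools of both Rps6 genotypes had nearly the same amount, 21.9 and 19.2 in RNA and 111 and 106 in footprints.

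The signal in Trp53 null limbs included footprints, that is, fragments protected by ribosomes and assigned to the coding sequence. Each null pool had 1034 to 1354 of them. RNA counts in the null pools were fewer, 287 to 547, although RNA libraries were deeper, and in every genotype the transcript took a larger part of the footprint libraries than of the RNA libraries.

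**Figure D2:**
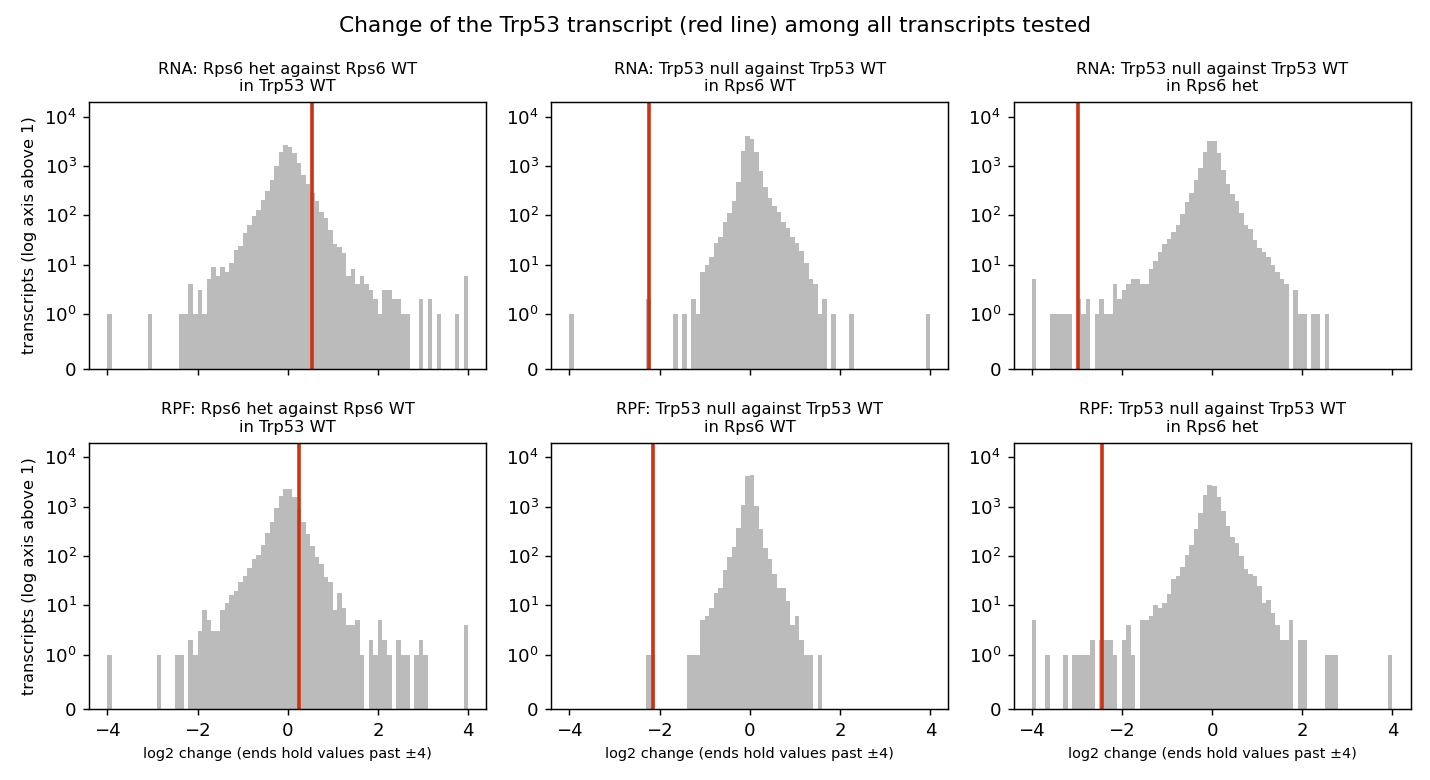
Distribution of log2 changes over all transcripts tested (grey, number of transcripts on an axis that is logarithmic above 1) for RNA (top) and footprints (bottom), with the Trp53 transcript as a red line. The left column compares Rps6 genotypes in limbs with Trp53, and the other columns compare Trp53 genotypes with Rps6 intact (middle) and in Rps6 het (right). The Trp53 transcript sits near the lower edge in the Trp53 contrasts (log2 changes of −2.14 to −2.98) and inside the bulk in the Rps6 contrast (0.53 and 0.24).

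The next comparison asks how the Trp53 message differs between Rps6 het and Rps6 WT limbs while Trp53 is intact. Prx1Cre was present in every Rps6 het pool and in no Rps6 WT pool. The loss of an Rps6 allele and the presence of Cre therefore cannot be told apart, here or without Trp53. RNA was higher in Rps6 het, at 1.44-fold of the control (log2 fold change 0.53 ± 0.11 SE). All 3 Rps6 het pools were above all 3 control pools, as were those of 21.4% of transcripts. Replicate 2, at 123 CPM, lay apart from the 168 and 160.1 CPM of the other Rps6 het pools and nearest to the highest control pool at 112 CPM. The log2 fold change was 0.65 without it and 0.44 without replicate 1. In footprints the difference was 1.18-fold (log2 fold change 0.24 ± 0.04 SE), the pools again did not overlap, and 19.3% of transcripts showed the same separation. Leaving out one pool gave log2 fold changes of 0.22 to 0.25 in footprints.

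Set among all transcripts, these differences were moderate. In RNA 5.27% of transcripts had a larger increase than Trp53, and in footprints 14.1% did. The middle 95% of transcripts ran from −0.66 to 0.71 on the log2 scale in RNA and from −0.69 to 0.60 in footprints, so Trp53 lay inside both ranges.

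The same Rps6 comparison was made in limbs without Trp53, where only the remaining signal can differ. RNA in Rps6 het was at 86.3% of the Rps6 WT level (log2 fold change −0.21 ± 0.14 SE), and footprints were at 95.5% (log2 fold change −0.07 ± 0.04 SE). Pools of the compared genotypes overlapped in both kinds. In RNA 1 of the 3 Rps6 het pools was below every Rps6 WT pool, and in footprints 2 of 3 were. The middle 95% of transcripts had log2 changes of −0.45 to 0.35 in RNA and −0.36 to 0.38 in footprints, and the Trp53 transcript lay inside both ranges.

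The Rps6 difference with Trp53 minus that without it was 0.74 ± 0.18 (SE) on the log2 scale in RNA and 0.31 ± 0.06 in footprints. It was not tested, since the transcript was chosen on these values. The spread of all transcripts in the same quantity was wide, with the middle 95% between −0.71 and 0.94 in RNA and between −0.74 and 0.62 in footprints. It compares the whole signal of an intact gene with the remaining signal of a null one. The null groups hold 19.2 and 21.9 CPM of RNA, where a difference of a few CPM is a large ratio.

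**Figure D3:**
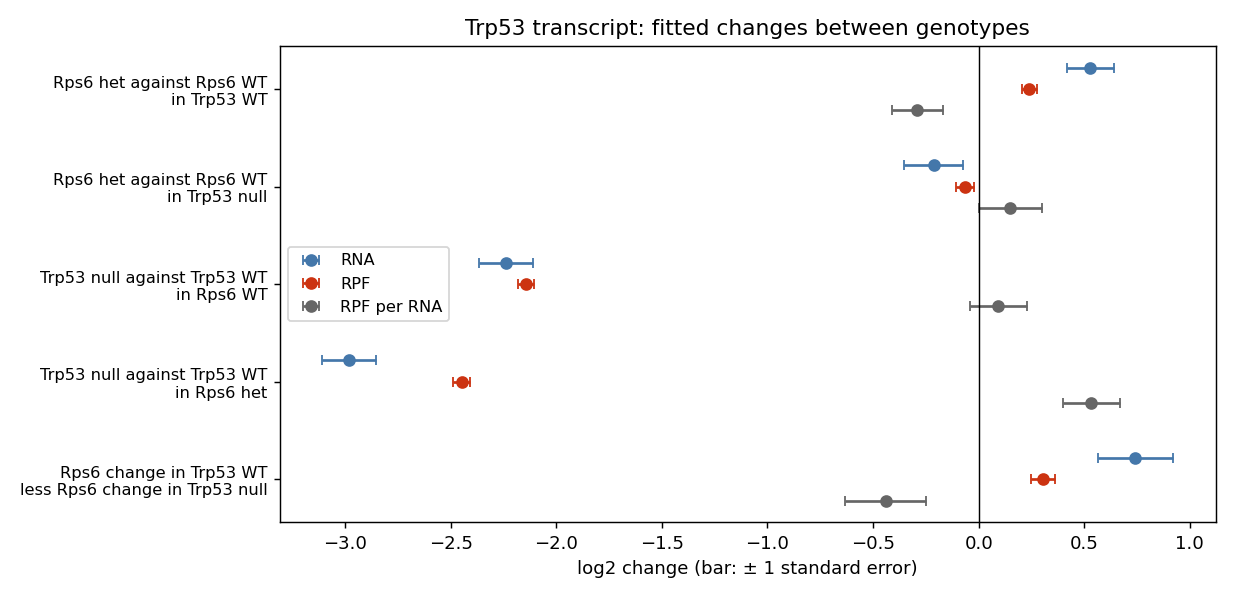
Fitted log2 changes of the Trp53 transcript in RNA (blue), footprints (red) and footprints per RNA (grey) for 4 contrasts between genotypes and for the difference between the Rps6 contrasts. Bars are ± 1 standard error. Footprint changes lie nearer to 0 than RNA changes in each contrast, for example 0.24 against 0.53 for Rps6 het with Trp53.

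Footprints per RNA, the ratio of the footprint CPM to the RNA CPM of one pool, describes how many ribosomes the message carries relative to other messages. The ratio was 4.45, 5.00 and 4.71 in the control pools (4.72 ± 0.28 SD, n = 3). In Rps6 het, Trp53 WT it was 3.48, 4.70 and 3.60 (3.93 ± 0.67), with replicates 1 and 3 below every control pool and replicate 2 among them. In Rps6 WT, Trp53 null it was 4.27, 5.44 and 5.75 (5.16 ± 0.78), and in Rps6 het, Trp53 null it was 5.19, 5.04 and 6.62 (5.62 ± 0.87). Each genotype overlapped with its neighbour in the order of means. Footprints were counted on the coding sequence and RNA on the whole transcript, as the table's name states. The size of the ratio depends on these lengths, so only its differences between genotypes are used. Exons missing from the null allele, which are not known, could shorten both lengths unequally. Differences in the ratio between Trp53 null and Trp53 WT may therefore include an effect of length, which was not tested.

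By the fit over both library kinds, footprints per RNA of the Trp53 transcript was 81.8% of the control in Rps6 het with Trp53. The log2 change was −0.29 ± 0.12 (SE), inside the middle 95% of transcripts, which ran from −0.72 to 0.59. Without replicate 2 of that genotype the log2 change was −0.42, and without replicate 1 it was −0.21. For Trp53 null against Trp53 WT it was 0.09 ± 0.14 with Rps6 intact, where the pools overlapped, and 0.53 ± 0.13 in Rps6 het, where all 3 null pools were above all 3 WT pools, as in 7.41% of 12112 transcripts. The middle 95% of transcripts ran from −0.58 to 0.65 in the last contrast. Within Trp53 null, Rps6 het differed from Rps6 WT by 0.15 ± 0.15 (SE) on the log2 scale, with overlapping pools and a middle 95% of transcripts from −0.55 to 0.65. The standard errors given here do not use the pairing of footprint and RNA library within a pool. With each pool as a block the last difference was also 0.15, with a standard error of 0.13. The block lowered the standard error from 0.12 to 0.09 for Rps6 het with Trp53. For Trp53 null in Rps6 het it fell from 0.13 to 0.11.

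**Figure D4:**
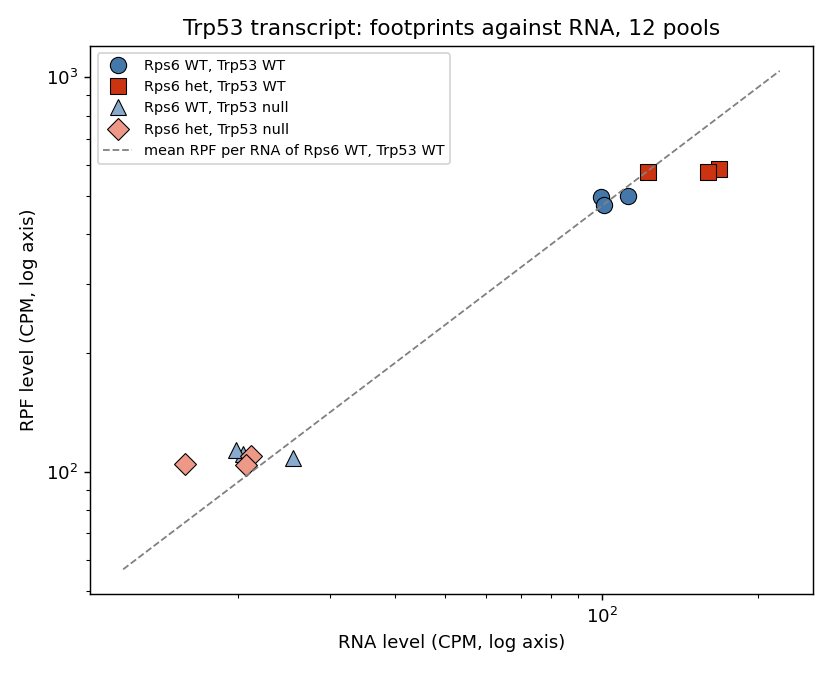
Footprint level against RNA level of the Trp53 transcript in the 12 pools, both in CPM on log axes, with a dashed line at the mean control ratio of 4.72. The Rps6 het, Trp53 WT pools spread along the RNA axis from 123 to 168 CPM at nearly one footprint level, 576 to 585 CPM.

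The ratios vary mainly through RNA. Between pools of one genotype the coefficient of variation of the Trp53 transcript was 6.70% to 16.0% in RNA, while counting error alone would give 1.82% to 5.23%. In footprints it was 0.816% to 2.87%, with a counting error of 1.28% to 2.94%. Footprint levels of replicate pools varied less than or about as much as counting error in 3 of the 4 genotypes and more in the control, with 2.79% against 1.28%, and RNA levels varied more than counting error in all 4. In Rps6 het, Trp53 WT the pool with the lowest RNA, replicate 2, had 577 CPM of footprints against 585 and 576 CPM in the others. In Rps6 het, Trp53 null the pool with the lowest RNA, replicate 3 at 15.8 CPM, had 105 CPM of footprints, between the others. Why RNA varied more was not tested.

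To place the pattern among others, the transcripts most like Trp53 were looked for. Likeness was measured as the root mean square difference in log2 CPM over the 24 libraries, each transcript centred on its mean within a library kind, over 12115 other transcripts that passed the count filter in both kinds. The Trp53 transcript itself deviated from its own means by 1.24 on this scale, the median transcript differed from it by 1.25, and the nearest by 0.78. That transcript, ENSMUST00000040487.3, had an RNA level of 7.47 ± 0.28 CPM (SD, n = 3) in the control and 4.55 ± 1.15 CPM in Rps6 WT, Trp53 null, a log2 difference of −0.68 ± 0.17 (SE). In Rps6 het with Trp53 it stood at 9.41 ± 0.44 CPM, a log2 difference of 0.34 ± 0.15 (SE) from the control. The next nearest, ENSMUST00000038211.12, differed by 0.81 and had an RNA level of 25.5 ± 0.89 CPM in the control and 11.3 ± 1.67 CPM in Rps6 WT, Trp53 null. Unlike Trp53 it was lower in Rps6 het with Trp53, at 19.2 ± 0.77 CPM. Both were lower without Trp53, a direction that follows from choosing them for likeness, and by smaller factors than the Trp53 transcript. Footprint counts of ENSMUST00000040487.3 were low, at 17 to 70 per library. With RNA libraries alone 0 of these 2 were among the nearest 2.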

How the data were processed

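Per the labels' protocols, lysates of E10.5 forelimbs gave RNA and, after RNase digestion and a sucrose cushion, footprints. The deposited table holds the authors' unnormalized counts per Ensembl transcript, on the coding sequence for footprints and the whole transcript for RNA by its name. The submitters' processing notes name Bowtie2, UMI-tools and GRCm38 (mm10). The counting tool, annotation release and strand setting are not given in the sources used here. Groups came from the labels and column names.

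Counts were fitted over all transcripts with edgeR 4.0.16 in R 4.3.3 (quasi-likelihood, TMM within library kind, filterByExpr with minimum count 10 and total 15), all 4 genotypes in one model per kind, and both kinds in one model for footprints per RNA. The fits gave fold changes and standard errors. A planned test of the Rps6 difference within Trp53 null is not given, since the transcript was chosen on its level in all libraries. CPM uses TMM-scaled totals, and log2 CPM a prior count of 2. The fit was also run on simulated data, for Rps6 het against Rps6 WT in Trp53 null alone. Its outcome is not given here and is no check of the reported values. Footprint and RNA libraries of one pool, paired by the shared lysate, deviated together (r = 0.111 to 0.387 over 12 pools, across transcripts). Standard errors come from the fit, whose estimate of the spread between pools borrows from all transcripts, so they are not this transcript's own spread. For the RNA difference of Rps6 het with Trp53 the standard error was 0.11 with edgeR and 0.15 with DESeq2. For footprints it was 0.036 and 0.038. Named transcripts were ENSMUST00000108658.9 and the 2 most like it. Planned lists of p53 pathway genes and cell type markers, and the targeted gene Rps6, were not used, since IDs could not be paired with symbols. The member and the lists were chosen with earlier results of these data known. Alternatives were DESeq2 1.42.0 (size factors, Wald test), no count filter, blocks for replicate number or pool, fits of the compared groups alone, and leaving out each pool.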

Additional observations from a re-analysis of the deposited data

How the results depend on the processing

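For the Trp53 transcript 15 changes were refitted 185 times. In 184 refits the direction held and the value moved by less than 1 SD between replicates. The exception was footprints per RNA for Rps6 het in Trp53 null, which ranged from −0.0067 (without replicate 1 of Rps6 WT, Trp53 null) to 0.24 on the log2 scale with one pool left out. The RNA change in that contrast ranged from −0.30 to −0.08, the latter without the same pool. Where leaving out a pool left 2 in a group, the spread was shared with the other genotypes. In such refits the limit of 1 SD could hardly be passed, because the SD includes the pool left out. The size of the move is therefore no check there, and only the direction was free to change.

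Libraries of one kind and different genotypes correlated at −0.281 to 0.257 (mean 0.022) where they shared a replicate number. With other numbers they correlated at −0.313 to 0.369 (mean −0.0109). Of 24 libraries, 12 correlated best with their own number, and whether the number pairs pools was not tested. A replicate block lowered the standard error of the RNA change for Rps6 het with Trp53 from 0.110 to 0.084. With the replicate block the log2 changes for Rps6 het in Trp53 null were −0.21 in RNA, −0.07 in footprints and 0.14 in their ratio.

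Of the 2 transcripts named as most like Trp53, 0 were the nearest with RNA libraries alone. Fitting the compared groups alone equals the reported fit where all 4 genotypes enter. Depth limits RNA of the null pools most, at 287 to 547 counts.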
